A study of Mus musculus with 8 samples.

Results

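SR proteins and heterogeneous nuclear ribonucleoproteins (hnRNPs) are the abundant RNA-binding proteins that coat nascent transcripts and steer splice site choice. Genes were taken as members by symbol, namely every Srsf gene with a number, every Hnrnp gene, Tra2a and Tra2b, with symbols ending in -ps or a numbered form of it left out as pseudogenes. The rule found 33 genes, 11 Srsf, 2 Tra2 and 20 Hnrnp, among 17705 genes matched between the deposited tables, and left out Hnrnpa1l2-ps, Hnrnpa1l2-ps2 and Srsf3-ps. All 33 passed the filters on low values in every test. The RNA came from the hippocampus of C57BL/6 mice in 4 groups of 2 libraries: a CRISPR knockout of Pyk2 (KO), a CRISPR line with the Y402F substitution in Pyk2 (Y402F), wild-type controls of the KO line (KO controls) and wild-type controls of the Y402F line (Y402F controls). Pyk2 is a tyrosine kinase encoded by Ptk2b, the substituted tyrosine is its autophosphorylation site, and the study asked how each change bears on contextual fear memory. The age of the mice, the number of founders behind each line and the animals behind each library are not given, so p-values measure the spread between libraries, which may be partly technical.

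SR proteins bind exonic enhancers through RNA recognition motifs, and their arginine- and serine-rich tails recruit the splicing machinery once kinases of the Srpk and Clk families have phosphorylated them. Many hnRNPs act against them by blocking splice sites or looping out exons, and several also govern export, transport and decay of mRNA. Both families keep their own levels in check: inclusion of a so-called poison exon, or retention of an intron, sends their transcripts to nonsense-mediated decay or holds them in the nucleus. A gene-level value adds such noncoding transcripts to the coding ones. In neurons these proteins set the splice forms of channels, receptors and adhesion molecules, and several travel with mRNA into dendrites and axons.

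Levels are given as scaled FPKM, the deposited FPKM (fragments per kilobase of transcript, relative to library size) divided by a factor for each library that brings the genes listed at 1 FPKM or more in every library to a common median ratio. The mutant tables and the control tables were made in different ways, with expected counts beside FPKM for KO and Y402F and a Cufflinks estimate over another set of transcripts for both control groups. Every comparison of a mutant with its controls therefore sets one kind of table against the other, and table and genotype cannot be told apart there. KO against Y402F, and KO controls against Y402F controls, each stay within 1 kind of table. Ptk2b was at 56.1 and 68.7 scaled FPKM in KO and 353 and 396 in Y402F, against 309 and 308 in KO controls and 323 and 317 in Y402F controls. Both KO libraries were thus far below the other 6. Ttr, the transthyretin gene of the choroid plexus, was at 1.19 and 10.2 scaled FPKM in KO, 2.23 and 656 in Y402F, 9.05 and 7.71 in KO controls and 1015 and 1032 in Y402F controls, so that Y402F replicate 2 and the Y402F controls stood apart. Xist was at 25.5 and 0.170 in KO, 40.1 and 0.106 in Y402F, 3.95 and 3.24 in KO controls and 0.0522 and 0.295 in Y402F controls, with the Y-linked Ddx3y at 0.0419 and 5.07 in KO, 0.0423 and 4.74 in Y402F, 0.0694 and 0.0695 in KO controls and 5.77 and 4.78 in Y402F controls. This is a female pattern in replicate 1 of each mutant and in KO controls 1 and 2, and a male pattern in the rest.

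The splicing factors were among the more abundant transcripts of the hippocampus. Their median level, taken over the mean of the 8 libraries for each gene, was 46.3 scaled FPKM, against 10.8 for the 12973 genes tested, and 32 of the 33 lay above that median. Hnrnph1, whose protein binds runs of guanine, averaged 314 scaled FPKM over all libraries, followed by the poly-cytosine binder Hnrnpk at 225, Hnrnpa2b1 at 184, Hnrnpc at 107 and the nuclear matrix protein Hnrnpu at 91.0. The place of Hnrnph1 at the top came from the control tables, where it averaged 569 and ranked 1 of the members, against 58.5 and rank 11 in the mutant tables. Hnrnpk ranked 1 in the mutant tables and 2 in the control tables. At the low end stood Srsf12, a relative of Srsf10, at 7.51, then Srsf10 at 13.6 and Hnrnpll, which is known for the splicing of Ptprc in T cells, at 14.0. Srsf12 was the only member below the median gene, at percentile 39.9, with 7.66 and 6.76 scaled FPKM in KO, 7.84 and 6.91 in Y402F, 7.09 and 6.49 in KO controls and 8.84 and 8.51 in Y402F controls. Even this gene had 112 to 127 expected counts in a mutant library, and the members as a whole had 111 to 2619.

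**Figure D1:**
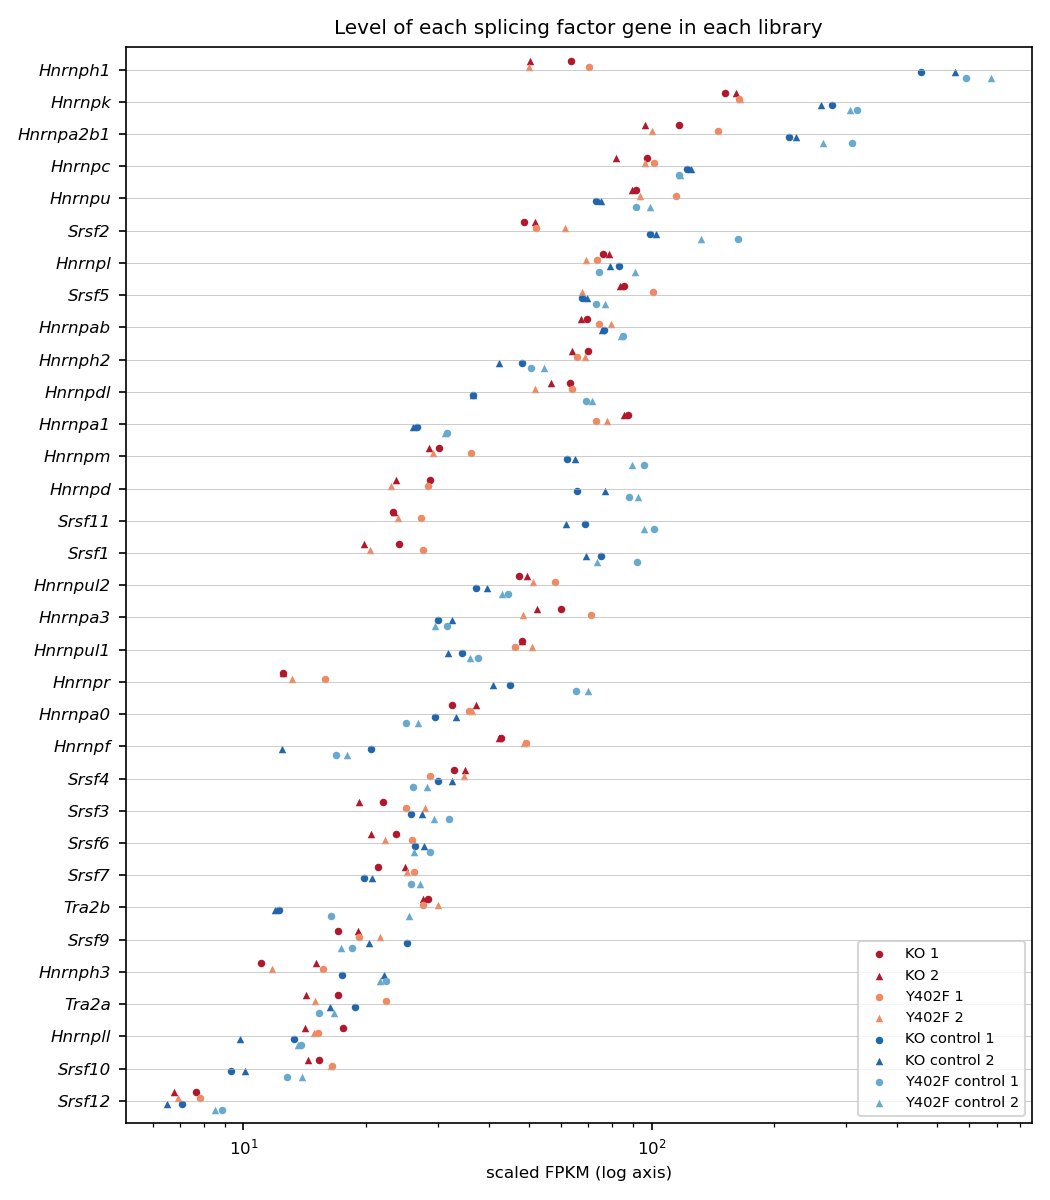
Scaled FPKM of each of the 33 genes (rows, by mean level; log axis) in each of the 8 libraries, with circles for replicate 1 and triangles for replicate 2, mutants in reds and controls in blues. Hnrnph1, at the top, lies between 50.1 and 70.4 in the mutants and between 458 and 678 in the controls.

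KO was compared with Y402F to set loss of the protein beside loss of its autophosphorylation site, within tables made alike. Mutation and line cannot be told apart in this comparison. No member was called, that is, none had an adjusted p under 0.05 in the quasi-likelihood test of edgeR on expected counts, where 0.015% of 13305 genes were called. The called genes were Ptk2b and Npas4. Without adjustment, 1 member and 260 genes had a p under 0.05, and DESeq2 and limma also called no member. The member was Srsf3, the smallest SR protein, which shuttles between nucleus and cytoplasm and takes part in mRNA export. Srsf3 (Entrez 20383, chr17:29032628-29043373, + strand) was at 22.0 and 19.2 scaled FPKM in KO, against 25.0 and 27.9 in Y402F (log2 difference -0.36, SE 0.16, edgeR adjusted p = 0.999). Its libraries did not overlap between the groups, and its unadjusted p was 0.0365.

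Small differences in the same direction were frequent. Of the 33 members, 27 had a log2 difference below 0, with a median of -0.12, against -0.00 over all tested genes, and 12 had less scaled FPKM in both KO libraries than in either Y402F library. Such a lack of overlap held for 36.4% of the members and 13% of all tested genes; the 2 members that lay higher in both KO libraries, Hnrnpa1 and Hnrnpl, made 6.06%, against 12.7%. The median moved with single libraries: it was -0.04 without Y402F replicate 1, -0.06 without KO replicate 2, -0.14 without KO replicate 1 and -0.17 without Y402F replicate 2, the library with choroid plexus transcripts. Markers of some other cells lay apart too, though none was called. All 5 oligodendrocyte, all 5 microglia and all 5 blood markers had a log2 difference above 0, with medians of 0.21, 0.16 and 0.38. All 4 choroid plexus markers tested had one below 0, with a median of -0.75. Of the 5 astrocyte, 4 endothelial and 6 hippocampal neuron markers, 3, 1 and 3 lay above 0, with medians of 0.01, -0.04 and -0.08. The oligodendrocyte markers summed to 2690 and 3254 scaled FPKM in KO, against 2445 and 2763 in Y402F, the microglia markers to 212 and 213, against 171 and 203, and the blood markers to 361 and 498, against 281 and 409. Their part in the members' shift was not tested. Differences ranged from -0.36 to 0.19, with an SE between 0.13 and 0.21, and every adjusted p was 0.999, so none of these differences stood out from the spread between libraries, and likeness of the groups was not shown either. Whether cells of a type were fewer or held less RNA cannot be told apart in bulk tissue. The wild-type controls of the lines differed in the same direction. In KO controls against Y402F controls 27 members had a log2 difference below 0, with a median of -0.21. A difference between the lines and one between the mutations therefore cannot be told apart in the shift between KO and Y402F.

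Among the SR genes the other extreme was Srsf4, at 32.8 and 34.9 scaled FPKM in KO, against 28.6 and 34.8 in Y402F, with a log2 difference of 0.10 and overlapping libraries. Tra2a, which binds purine-rich exonic enhancers, was at 17.0 and 14.2 in KO, against 22.4 and 15.0 in Y402F (log2 difference -0.26, SE 0.21, edgeR adjusted p = 0.999), where Y402F replicate 1 stood above the other 3 libraries; without that library the log2 difference of Tra2a was 0.06, and that of Srsf4 was -0.04. Among the hnRNP genes Hnrnpr, a protein that binds beta-actin mRNA in motor axons, had the lowest difference, with 12.5 and 12.5 in KO, against 15.8 and 13.2 in Y402F (log2 difference -0.21, SE 0.15, edgeR adjusted p = 0.999). Hnrnpa1, the best known repressor of exon inclusion, had the highest, with 87.5 and 85.8 in KO, against 73.0 and 77.9 in Y402F (log2 difference 0.19, SE 0.14, edgeR adjusted p = 0.999). Hnrnpl, which binds CA repeats, was at 75.9 and 78.7 in KO, against 73.6 and 69.1 in Y402F (log2 difference 0.11, SE 0.14, edgeR adjusted p = 0.999). In both of these genes the 2 KO libraries lay above the 2 Y402F libraries.

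**Figure D2:**
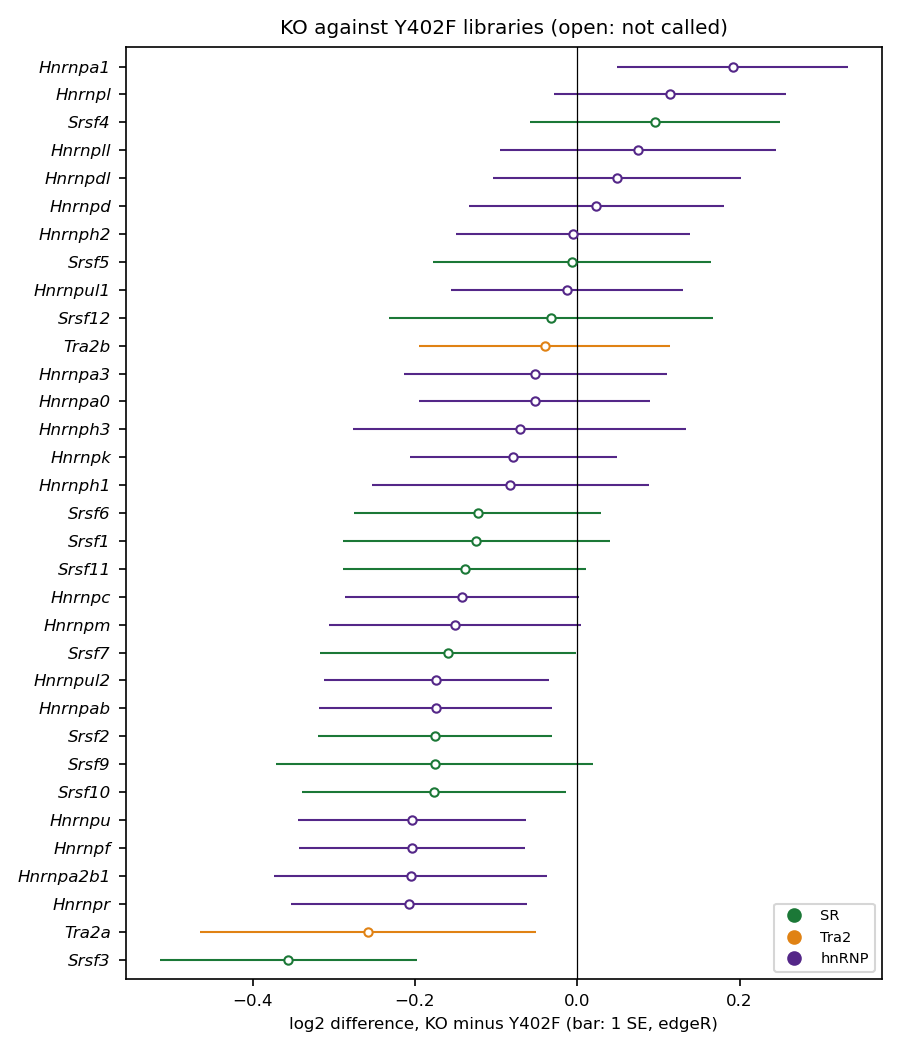
Log2 difference of each gene, KO minus Y402F, from edgeR on expected counts, with bars of 1 SE; open points were not called. All 33 points are open, 27 of them lie left of 0, and they span -0.36 to 0.19.

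Against their own controls the mutants differed in many members, in both directions. In KO 20 of the 33 were called by limma, 9 higher and 11 lower; over all 12973 tested genes 16.6% were called higher and 21% lower, 37.6% in all, against 60.6% of the members. In Y402F 17 were called, 7 higher and 10 lower; over all tested genes 13% were higher and 19.3% lower, 32.3% in all, against 51.5% of the members. The split depended on the scaling: with FPKM as deposited, where the median gene lay 0.12 lower on the log2 scale in the mutants of both lines, it was 8 higher and 15 lower in KO and 3 higher and 14 lower in Y402F, and after quantile normalization 13 higher and 9 lower in KO and 10 higher and 9 lower in Y402F. The median member had a log2 difference of -0.07 in KO and -0.14 in Y402F, against 0.00 over all genes for both. After quantile normalization these medians were 0.10 in KO and 0.02 in Y402F, with all genes at 0.08 and 0.09.

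Most of the called members were called in both lines, whose libraries are not shared. Called in the same direction in both were 16 genes, 80.0% of the calls in KO and 94.1% of those in Y402F, and none was called in opposite directions. Over all tested genes 3007 were called in the same direction in both, 61.6% of the calls in KO and 71.7% of those in Y402F, and 12 in opposite directions. Both comparisons set a mutant table against a control table, so shared calls are not read as a result about the members. Higher in both were 6 hnRNP genes: Hnrnpa1, Hnrnpa3, Hnrnpf, Hnrnph2, Hnrnpul1 and Hnrnpul2. Lower in both were Srsf1, Srsf2, Srsf11, Hnrnpa2b1, Hnrnpd, Hnrnph1, Hnrnph3, Hnrnpk, Hnrnpm and Hnrnpr. Srsf10, Tra2b and Hnrnpdl were called higher, and Hnrnpc lower, in KO, and Hnrnpa0 was called higher in Y402F; for none of these 5 was the difference between the lines itself called. The remaining 12 genes, among them 7 of the SR genes, were called in neither. Cell type markers moved beside them: 4 of 6 markers of hippocampal neurons were called higher in KO and 3 of 6 in Y402F, 2 of 5 oligodendrocyte markers lower in KO, with 2 higher and 1 lower in Y402F, and 4 of 8 choroid plexus markers lower in Y402F. Of 5 astrocyte markers 3 were called higher in KO and 1 in Y402F, and of 5 blood markers 2 were called lower in KO, with 1 higher and 2 lower in Y402F. Of 5 microglia markers 1 was called lower in KO and none in Y402F, and of 4 endothelial markers 1 was called lower in each line. The part of these in the members' differences was not tested.

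Of the SR genes Srsf1, the founding member of the family and an antagonist of Hnrnpa1, was at 24.0 and 19.8 scaled FPKM in KO and 27.6 and 20.4 in Y402F, against 75.1 and 68.9 in KO controls and 92.0 and 73.6 in Y402F controls. It thus held 30.4% of the control level in KO (log2 difference -1.68, SE 0.17, limma adjusted p = 0.000179) and 28.9% in Y402F (log2 difference -1.75, SE 0.17, limma adjusted p = 0.000149). Srsf11, which was linked to neuronal microexons in mouse cells, was at 23.2 and 23.4 in KO and 27.2 and 24.0 in Y402F, against 68.5 and 61.8 in KO controls and 102 and 95.6 in Y402F controls. All 4 mutant libraries were far below all 4 control libraries, with log2 differences of -1.44 (KO; limma adjusted p = 3.23e-05) and -1.91 (Y402F; limma adjusted p = 7.12e-06). Srsf2, the nuclear speckle protein also called SC35, was at 48.6 and 51.9 in KO and 52.0 and 61.4 in Y402F, against 99.2 and 102 in KO controls and 163 and 132 in Y402F controls. Its log2 differences were -0.99 (KO; limma adjusted p = 0.000531) and -1.36 (Y402F; limma adjusted p = 0.000101). Srsf2 shares 3194 bases with Mettl23 on the opposite strand and 655 with Mfsd11, and no label says whether the libraries kept strand, so reads of these genes may not be separable. The same holds for other called members: Hnrnpul2 shares 4371 bases with AC129217.1 and Hnrnpm 1169 with March2, both on the same strand, and Hnrnph3 shares 2547 with Rufy2 and Hnrnpk 1096 with Rmi1 on the opposite strand. In all, 11 of the 21 members called in any comparison share bases with another gene, 5 of them with a protein-coding one. Of all 33 members 17 do, 7 of them with a protein-coding gene, so such sharing is not particular to the called members.

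In the other direction, Srsf10, which represses splicing when it loses its phosphates, was at 15.3 and 14.4 scaled FPKM in KO, against 9.34 and 10.1 in KO controls (log2 difference 0.56, SE 0.12, limma adjusted p = 0.00842). In Y402F it was at 16.5 and 16.4, against 12.8 and 13.9 in Y402F controls (log2 difference 0.29, SE 0.12, limma adjusted p = 0.114). The other 7 SR genes had log2 differences between -0.35 (Srsf3) and 0.30 (Srsf5) in KO and between -0.21 (Srsf12) and 0.21 (Srsf4) in Y402F. Tra2b, which binds the same kind of enhancer as Tra2a, was at 28.4 and 27.6 in KO, against 12.2 and 11.9 in KO controls (log2 difference 1.15, SE 0.18, limma adjusted p = 0.00177). In Y402F its level was 27.5 and 30.0, against 16.4 and 25.4 in Y402F controls (log2 difference 0.47, SE 0.18, limma adjusted p = 0.0818), where Y402F control replicate 2 came close to the mutants. Tra2a had log2 differences of -0.16 in KO and 0.18 in Y402F, neither of them called.

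Hnrnph1 (Entrez 59013, chr11:50376990-50386528, + strand) had the largest difference of all members. It was at 63.4 and 50.3 scaled FPKM in KO and 70.4 and 50.1 in Y402F, against 458 and 553 in KO controls and 589.8 and 678 in Y402F controls. The mutants held 11.3% of the control level in KO (log2 difference -3.13, SE 0.18, limma adjusted p = 7.64e-06) and 9.50% in Y402F (log2 difference -3.39, SE 0.18, limma adjusted p = 5.14e-06). Its close relatives went different ways. Hnrnpf, which binds the same G tracts, was at 42.9 and 42.4 in KO and 49.3 and 48.7 in Y402F, against 20.6 and 12.4 in KO controls and 16.8 and 17.9 in Y402F controls. The KO controls differed widely from each other but lay below every mutant library; KO stood at 258% of its controls (log2 difference 1.36, SE 0.20, limma adjusted p = 0.00106) and Y402F at 282% (log2 difference 1.45, SE 0.20, limma adjusted p = 0.000848). Hnrnph2, the X-linked copy, was at 70.0 and 63.9 in KO and 65.7 and 68.6 in Y402F, against 48.1 and 42.3 in KO controls and 50.6 and 54.5 in Y402F controls, log2 differences of 0.56 and 0.35 (limma adjusted p = 0.00399 in KO and 0.0339 in Y402F). Hnrnph3 was at 11.0 and 15.0 in KO and 15.6 and 11.7 in Y402F, against 17.5 and 22.1 in KO controls and 22.3 and 21.6 in Y402F controls, with -0.57 and -0.66 (limma adjusted p = 0.0471 in KO and 0.0322 in Y402F).

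The A and B type hnRNPs also split. Hnrnpa1 (Entrez 15382, chr15:103240432-103246692, + strand) was at 87.5 and 85.8 scaled FPKM in KO and 73.0 and 77.9 in Y402F, against 26.7 and 26.1 in KO controls and 31.6 and 31.1 in Y402F controls. KO stood at 329% of its controls (log2 difference 1.68, SE 0.09, limma adjusted p = 5.65e-06) and Y402F at 241% (log2 difference 1.24, SE 0.09, limma adjusted p = 3.01e-05). Pseudogenes with Hnrnpa1-like symbols were listed in the control tables and hardly in the mutant tables. Hnrnpa1l2-ps was at 5.59 to 6.93 FPKM in the 4 control libraries and in no mutant table. Hnrnpa1l2-ps2 was at 8.61 to 11.7 FPKM in the controls and at 0.28 in KO replicate 1 alone of the mutants. Srsf3-ps, the pseudogene with an Srsf3-like symbol, was likewise at 6.95 to 8.61 FPKM in the controls and in no mutant table. Srsf3 itself had log2 differences of -0.35 in KO and -0.20 in Y402F, below 0 where those of Hnrnpa1 were above 0. Whether reads of Hnrnpa1 or Srsf3 were divided differently in the 2 kinds of table was not tested, and the difference of Hnrnpa1 is uncertain. Hnrnpa3, which takes part in the transport of mRNA into neurites, was at 60.0 and 52.5 in KO and 70.9 and 48.5 in Y402F, against 30.0 and 32.5 in KO controls and 31.5 and 29.5 in Y402F controls, with log2 differences of 0.83 and 0.92 (limma adjusted p = 0.00603 in KO and 0.00415 in Y402F). Hnrnpa2b1, which has the same role in transport, moved the opposite way, with 117 and 96.5 in KO and 146 and 100.2 in Y402F, against 217 and 225 in KO controls and 309.5 and 263 in Y402F controls. Its log2 differences were -1.05 and -1.23 (limma adjusted p = 0.00207 in KO and 0.00103 in Y402F). Hnrnpa0 was at 35.7 and 36.3 in Y402F, against 25.0 and 26.7 in Y402F controls (log2 difference 0.46, SE 0.12, limma adjusted p = 0.0164), and at 32.5 and 37.0 in KO, against 29.4 and 33.3 in KO controls, where it was not called (limma adjusted p = 0.361).

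Of the other hnRNPs, Hnrnpr was at 12.5 and 12.5 scaled FPKM in KO and 15.8 and 13.2 in Y402F, against 44.9 and 41.0 in KO controls and 65.4 and 69.7 in Y402F controls, which left 29.1% of the control level in KO (log2 difference -1.70, SE 0.12, limma adjusted p = 2.54e-05) and 21.4% in Y402F (log2 difference -2.15, SE 0.12, limma adjusted p = 7.21e-06). Hnrnpd, the AU-rich element binder AUF1 that promotes mRNA decay, was at 28.7 and 23.6 in KO and 28.3 and 23.0 in Y402F, against 65.6 and 76.7 in KO controls and 88.0 and 92.8 in Y402F controls, with log2 differences of -1.41 and -1.78 (limma adjusted p = 0.000162 in KO and 5.04e-05 in Y402F). Hnrnpm was at 30.2 and 28.4 in KO and 36.0 and 29.1 in Y402F, against 62.1 and 64.7 in KO controls and 95.7 and 89.4 in Y402F controls, with -1.09 and -1.49 (limma adjusted p = 0.000247 in KO and 5.08e-05 in Y402F). In these 3 genes every mutant library lay below every control library. Hnrnpk was at 151 and 161 in KO and 163 and 165 in Y402F, against 277 and 260.0 in KO controls and 319 and 306 in Y402F controls, with -0.78 and -0.93 (limma adjusted p = 0.000136 in KO and 5.88e-05 in Y402F). Hnrnpc, which binds uridine tracts and guards against the use of cryptic exons, was at 97.4 and 81.7 in KO, against 122 and 125 in KO controls (log2 difference -0.46, SE 0.10, limma adjusted p = 0.00753), and at 101 and 96.4 in Y402F, against 117 and 118 in Y402F controls (log2 difference -0.24, SE 0.10, limma adjusted p = 0.0929). The U-like genes had small rises. Hnrnpul1 was at 48.2 and 48.1 in KO and 46.3 and 50.9 in Y402F, against 34.3 and 31.7 in KO controls and 37.6 and 36.0 in Y402F controls, with 0.53 and 0.39 (limma adjusted p = 0.00419 in KO and 0.0188 in Y402F). Hnrnpul2 was at 47.3 and 49.5 in KO and 58.0 and 51.1 in Y402F, against 37.2 and 39.5 in KO controls and 44.5 and 43.1 in Y402F controls, with 0.33 and 0.31 (limma adjusted p = 0.0360 in KO and 0.0497 in Y402F). Hnrnpu, Hnrnpl, Hnrnpll and Hnrnpab were called in neither line and had differences between -0.20 and 0.43.

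**Figure D3:**
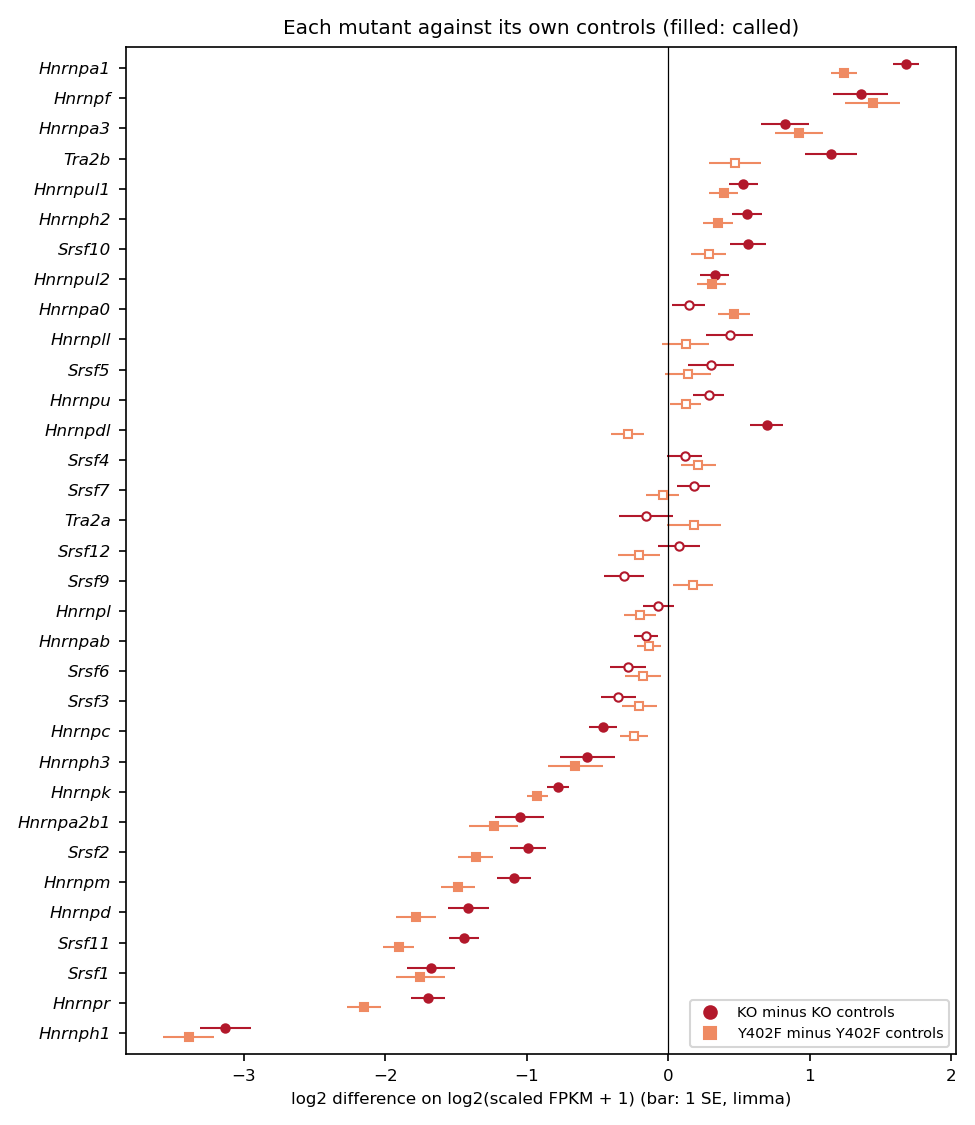
Log2 difference of each gene between a mutant and its own controls on log2(scaled FPKM + 1), with KO as circles and Y402F as squares, bars of 1 SE from limma, and filled points for called genes. The lines follow each other from Hnrnph1, at -3.13 in KO and -3.39 in Y402F, to Hnrnpa1, at 1.68 and 1.24, and part most at Hnrnpdl.

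The direction of these differences went with the length and number of the transcripts that GENCODE holds for each gene. In GENCODE M21, whose gene starts and ends match the positions of all 33 members in the control tables, Hnrnph1 has 18 transcripts, of which the shortest is 159 bases long, while the mutant tables list a single RefSeq transcript for it. Cufflinks put a confidence half-width of 24.9 to 29.2% of the value on Hnrnph1 in the control libraries. Similar or wider ones stood on Hnrnpf (21.35 to 34.01%), Srsf10 (23.78 to 32.77%), Srsf12 (24.25 to 28.07%) and Srsf3 (24.2 to 29.37%). None of these was called lower in either line. Hnrnph3 (20.59 to 23.17%) and Hnrnpr (16.87 to 23.1%), whose ranges overlap that of Hnrnpf, were called lower in both. The part of these widths in the calls was not tested. Of the 33 members, 14 have a GENCODE transcript shorter than 500 bases, a limit chosen after the values were seen. Their median effect, the mean of the 2 log2 differences, was -1.16, and 9 were called lower in KO and 9 in Y402F, with 2 and 1 called higher. In the other 19 members the median effect was 0.16, with 2 called lower in KO and 1 in Y402F, and 7 and 6 called higher. Hnrnpf, with a shortest transcript of 391 bases, Srsf10, Srsf5 and Hnrnpu went against this order, with a mean effect above 0.

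The same split over all tested genes gave the same order. Of the 12820 genes with a unique GENCODE symbol, 6314 have a transcript shorter than 500 bases, and their median effect was -0.25, with 31.5% called lower in KO and 30% in Y402F and 9.99% and 8.03% called higher. The other 6506 genes had a median effect of 0.16, with 10.6% called lower in KO and 9.04% in Y402F and 23.1% and 17.7% called higher. Spearman's rho between the shortest transcript and the effect was 0.55 across the 33 members and 0.44 across all these genes. With the number of GENCODE transcripts it was -0.45 and -0.42. With the number of RefSeq transcripts in the mutant tables it was -0.07 across the members. These are descriptions across genes, which share libraries and are no independent replicates. The part of the gene models in the differences was not tested.

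**Figure D4:**
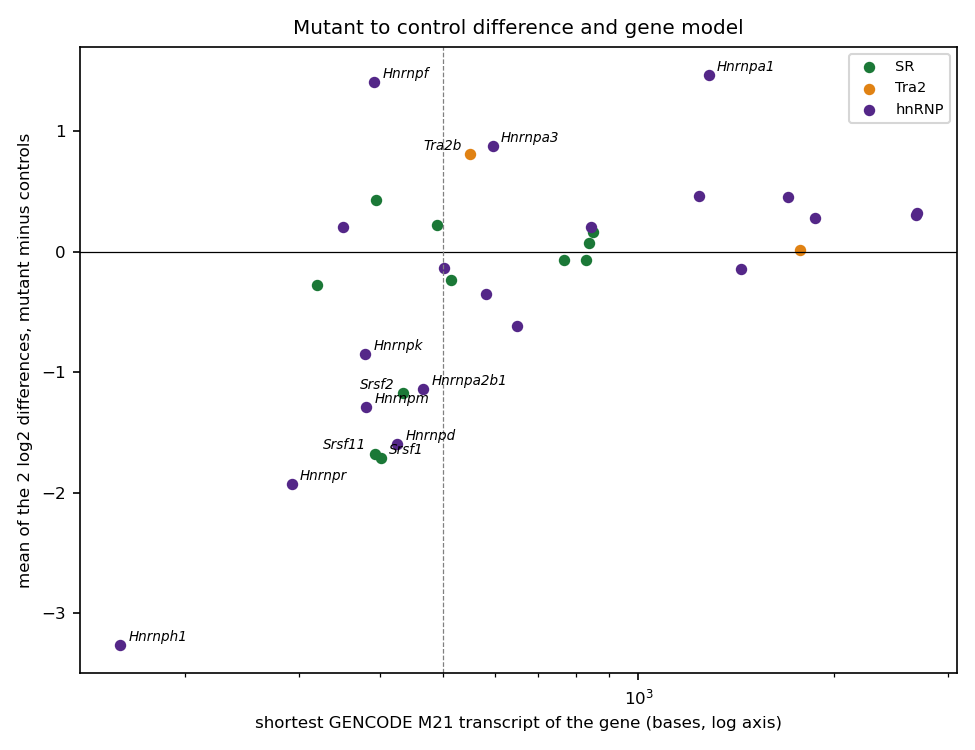
Mean of the 2 log2 differences, mutant minus own controls (vertical axis), against the length of the shortest GENCODE M21 transcript of each gene in bases (log axis); the dashed line marks 500 bases. Of the 14 genes left of the line 10 lie below 0, down to Hnrnph1 at -3.26, and of the 19 others 7 do.

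KO controls and Y402F controls are both wild-type mice and come from tables of 1 kind, so this comparison shows how far the members vary without a mutation in Pyk2. Limma called 5 members, all lower in KO controls: Hnrnpdl, Hnrnpr, Srsf11, Srsf2 and Hnrnpm. That is 15.2% of the members, against 8.06% of all tested genes called in either direction and 3.19% called lower; 4.87% of all genes and 0 members were called higher. Without adjustment 14 members and 3520 genes had a p under 0.05, and 27 members had a log2 difference below 0, with a median of -0.21, against -0.02 over all genes. In 22 members both KO controls lay below both Y402F controls, 66.7% against 30.9% of all genes, and in 4 members both lay above, 12.1% against 28.1%. The part of the members' higher abundance in these shares was not tested.

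Hnrnpdl, a paralog of Hnrnpd (Entrez 50926, chr5:100033577-100039664, - strand), was at 36.5 and 36.5 scaled FPKM in KO controls, against 69.2 and 71.5 in Y402F controls (log2 difference -0.93, SE 0.12, limma adjusted p = 0.0110). The pairs lay close together within each group, KO controls held 51.9% of the Y402F control level, and the call held in all 12 alternatives run. Hnrnpr was at 44.9 and 41.0 in KO controls, against 65.4 and 69.7 in Y402F controls (log2 difference -0.64, SE 0.12, limma adjusted p = 0.0229), Srsf11 at 68.5 and 61.8, against 102 and 95.6 (log2 difference -0.59, SE 0.11, limma adjusted p = 0.0209), and Hnrnpm at 62.1 and 64.7, against 95.7 and 89.4 (log2 difference -0.54, SE 0.12, limma adjusted p = 0.0353). Srsf2 was at 99.2 and 102 in KO controls, against 163 and 132 in Y402F controls (log2 difference -0.54, SE 0.12, limma adjusted p = 0.0396), and Y402F control replicate 1 stood above the other 3. Tra2b missed the threshold with the lowest difference after Hnrnpdl, at 12.2 and 11.9 in KO controls, against 16.4 and 25.4 in Y402F controls (log2 difference -0.71, SE 0.18, limma adjusted p = 0.0507); the Y402F controls differed widely from each other. At the other end Srsf9 was at 25.2 and 20.4 in KO controls, against 18.4 and 17.4 in Y402F controls, with a log2 difference of 0.32 (limma adjusted p = 0.182), and Hnrnpa0 and Srsf4 had 0.27 and 0.19. The calls beyond Hnrnpdl did not hold with a control library left out, whichever it was. Such a fit also has fewer residual degrees of freedom, so it cannot show that a call rested on the library left out.

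Other transcripts differed between the same controls. The 8 choroid plexus markers summed to 51.4 and 49.6 scaled FPKM in KO controls, against 1151 and 1176 in Y402F controls, and 6 of them were called lower. The 5 blood markers summed to 579 and 580.0 in KO controls, against 303 and 317 in Y402F controls, with 4 called higher; the 5 microglia markers to 265 and 277, against 173 and 149, with 4 called higher; and the 5 oligodendrocyte markers to 4071 and 4187, against 2541 and 2569, with 2 called higher. The 6 markers of hippocampal neurons summed to 1924 and 1930.0 in KO controls, against 1865 and 1828 in Y402F controls, with 1 called lower. The sex pattern also differs between the 2 control groups. The part of these in the lower splicing factors was not tested. Y402F replicate 2 held choroid plexus markers at a sum of 758, and its sum over the 33 members, 1552 scaled FPKM, lay below that of Y402F replicate 1, 1724. In KO the members also summed to less in replicate 2, 1514, than in replicate 1, 1584. The choroid plexus sums there were 56.2 and 41.8. The part of choroid plexus transcripts in the members' sums was not tested.

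**Figure D5:**
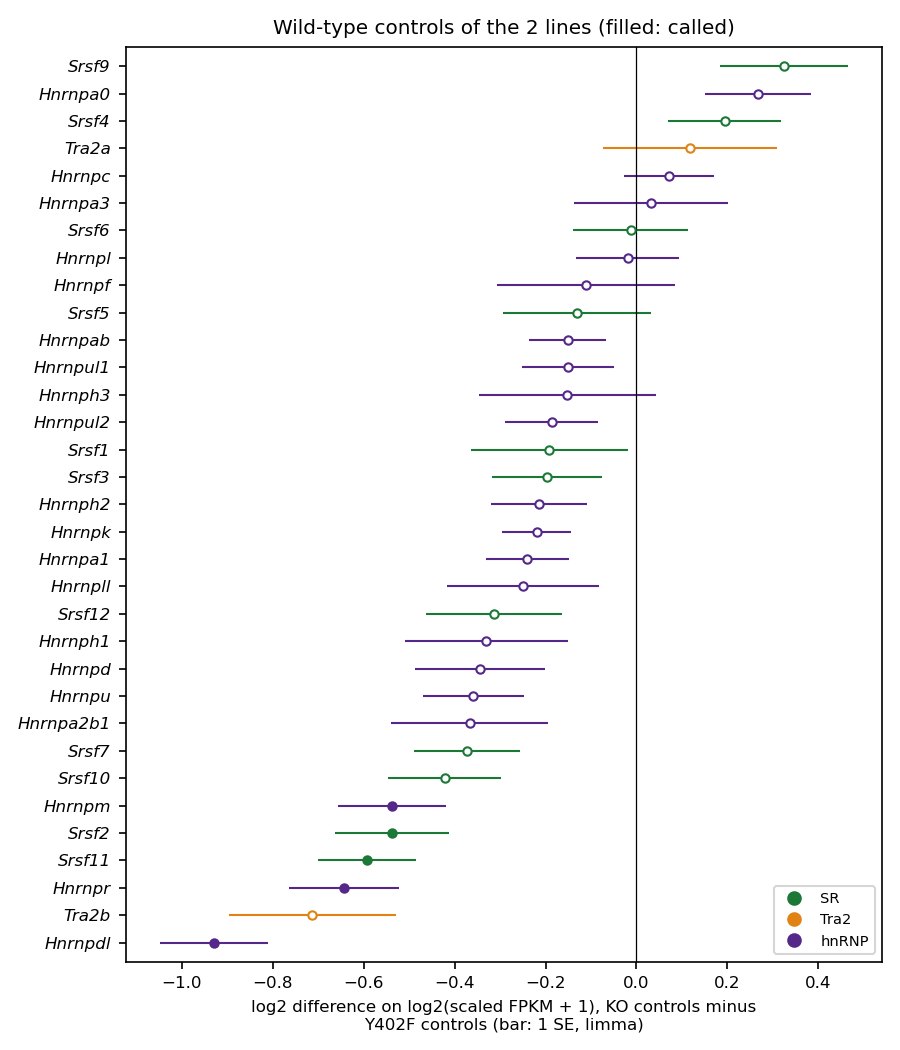
Log2 difference of each gene, KO controls minus Y402F controls, on log2(scaled FPKM + 1), with bars of 1 SE from limma and filled points for the called genes. The 5 filled points lie between -0.93 (Hnrnpdl) and -0.54 (Hnrnpm), and 27 of the 33 points lie left of 0.

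Promoter sequence is shown for Hnrnph1, the member with the largest difference between mutants and controls, and for Hnrnpr and Srsf2, which were called lower in KO controls and whose RefSeq start coincides with the GENCODE start of the gene. The lines give the 250 bases before the start from the RefSeq table of GRCm38.p6, 5′ to 3′ on the strand of the gene, with CCAAT boxes (CCAAT, or ATTGG on the other strand) and GC boxes (GGGCGG, or CCGCCC) in capitals.
Hnrnph1 (chr11:50376740-50376989, + strand): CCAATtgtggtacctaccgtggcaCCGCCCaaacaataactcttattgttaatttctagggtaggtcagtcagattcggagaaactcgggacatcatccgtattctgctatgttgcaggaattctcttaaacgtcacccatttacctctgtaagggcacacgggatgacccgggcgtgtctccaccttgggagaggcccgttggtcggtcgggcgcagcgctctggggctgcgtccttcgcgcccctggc
Hnrnpr (chr4:136310692-136310941, + strand): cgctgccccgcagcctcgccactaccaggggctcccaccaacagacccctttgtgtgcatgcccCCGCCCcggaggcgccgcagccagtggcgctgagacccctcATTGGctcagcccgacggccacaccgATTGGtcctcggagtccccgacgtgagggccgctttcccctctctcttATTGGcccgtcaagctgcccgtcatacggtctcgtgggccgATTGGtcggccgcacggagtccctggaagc
Srsf2 (chr11:116853095-116853344, - strand): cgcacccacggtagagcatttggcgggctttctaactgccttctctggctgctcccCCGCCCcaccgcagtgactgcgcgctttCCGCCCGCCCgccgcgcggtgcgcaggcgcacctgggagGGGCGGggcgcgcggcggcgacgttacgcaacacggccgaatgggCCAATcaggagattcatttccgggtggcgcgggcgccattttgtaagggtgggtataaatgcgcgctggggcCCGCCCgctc
Hnrnpr carries 4 CCAAT boxes, where Hnrnph1 and Srsf2 have 1 each, and Srsf2 carries 5 GC boxes, 2 of them overlapping, where Hnrnph1 and Hnrnpr have 1 each. A CCAAT box was present in 16 of the 31 members with a promoter in the table, 51.6%, against 36.1% of 10250 tested genes, and a GC box in 25, 80.6%, against 60.1%. A TATA box, TATAAA on either strand, was found in 3 members, 9.7% against 6.0%, and the cAMP response element TGACGTCA, the same on both strands, in 1, 3.2% against 2.7%. A match describes these letters only.

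The 2 mutant effects were set against each other, as the log2 difference of KO from its controls minus that of Y402F from its own, to ask whether the mutations differ in what they do to a member. A table difference common to both lines cancels here, but a difference between the control groups enters in full. No member was called by limma, where 0.0308% of all genes were; without adjustment 7 members and 1690 genes had a p under 0.05. The median member was at 0.16, against 0.02 over all genes. Hnrnpdl was highest, at 0.98 (SE 0.17, limma adjusted p = 0.136). It was at 63.0 and 56.5 scaled FPKM in KO, against 36.5 and 36.5 in KO controls (log2 difference 0.69, SE 0.12, limma adjusted p = 0.00256), and at 63.9 and 51.6 in Y402F, against 69.2 and 71.5 in Y402F controls (log2 difference -0.29, SE 0.12, limma adjusted p = 0.0987). All 4 mutant libraries lay between the 2 control groups. Tra2b followed at 0.68 (limma adjusted p = 0.328) and Srsf11 at 0.46 (limma adjusted p = 0.280), while Srsf9, Tra2a and Hnrnpa0 were lowest, at -0.49, -0.34 and -0.32.

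Genes that work with the SR and hnRNP proteins were taken from 8 lists. In KO against Y402F no gene of any list was called by edgeR, and 2, Snrpd1 and Celf6, had an unadjusted p under 0.05. Between the controls, SR-related proteins, which carry arginine- and serine-rich stretches without belonging to the family, had 7 of 18 genes called lower in KO controls and none higher, with a median log2 difference of -0.58, against -0.02 over all genes. They were Rsrp1, Acin1, Thrap3, Srrm2, Son, Luc7l2 and Luc7l; Srrm2, a scaffold of nuclear speckles, was at 39.9 and 41.3 scaled FPKM in KO controls, against 69.2 and 56.4 in Y402F controls (log2 difference -0.61, SE 0.12, limma adjusted p = 0.0267), and Son, the other speckle scaffold, at 31.0 and 31.4, against 45.8 and 52.2 (log2 difference -0.63, SE 0.13, limma adjusted p = 0.0321). The kinases Clk1 and Clk4, of 8 SR protein kinase genes tested, were lower in KO controls: Clk1 was at 29.0 and 25.2, against 45.1 and 47.1 in Y402F controls (log2 difference -0.75, SE 0.13, limma adjusted p = 0.0181), and Clk4 at 6.61 and 10.3, against 20.7 and 24.0 (log2 difference -1.33, SE 0.24, limma adjusted p = 0.0198). Transcripts of both are known to be held in the nucleus with introns retained.

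Nuclear long noncoding RNAs had the lowest median of the 8 lists between the controls, -1.57. Of 7, Malat1, Meg3, Miat and Snhg11 were called lower in KO controls and none higher. Malat1, which collects in nuclear speckles, was at 8.35 and 8.95 scaled FPKM in KO controls, against 49.9 and 52.1 in Y402F controls (log2 difference -2.43, SE 0.29, limma adjusted p = 0.0110), and Meg3 at 17.8 and 22.9, against 81.0 and 71.8 (log2 difference -1.87, SE 0.27, limma adjusted p = 0.0126). The 4 mutant libraries had 17.4 and 12.0 in KO and 19.8 and 9.46 in Y402F for Malat1, and in each mutant replicate 1 was above replicate 2. The list summed to 382 and 380.1 in KO controls, against 655 and 657 in Y402F controls. Of 36 core spliceosome genes, Snrpa1 and Snrpd2 were called higher and Sf1 lower, with a median of -0.02. Of 25 neuronal and tissue splicing regulators, Khdrbs3 was called higher and Ptbp2 and Khdrbs1 lower; Ptbp2, the neuronal polypyrimidine tract binder, was at 37.1 and 37.3 in KO controls, against 69.3 and 81.8 in Y402F controls (limma adjusted p = 0.0126). Of the genes of nonsense-mediated decay and the exon junction complex, Smg6 was among those called lower, of 8 hnRNP proteins with other symbols Raly was higher and Rbmx lower, and of 3 nuclear import receptors none was called (1, Tnpo3, had an unadjusted p under 0.05). The medians of these 4 lists were -0.26, -0.09, -0.13 and -0.28, and that of the kinases -0.24.

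Mutants against controls gave calls in both directions in 6 of the 8 lists in KO and in 4 in Y402F, where the others had lower calls alone. Of the core spliceosome genes 13 were higher and 8 lower in KO, and 11 higher and 9 lower in Y402F. The splicing regulators had 3 higher and 8 lower in KO, and 1 higher and 8 lower in Y402F; Nova1, a neuron-specific regulator, had log2 differences of -1.37 in KO and -1.90 in Y402F (limma adjusted p = 0.000175 and 3.22e-05). The 8 hnRNP proteins with other symbols had 2 higher and 3 lower in either line. The SR-related genes had 4 higher and 4 lower in KO, and 0 higher and 9 lower in Y402F, and the SR protein kinases 0 higher and 2 lower in KO, and 0 higher and 4 lower in Y402F; for neither list was the difference between the lines called in any gene. Nonsense-mediated decay genes had 2 higher and 3 lower in KO, and 2 higher and 4 lower in Y402F, import receptors 0 higher and 1 lower in KO, and 0 higher and 2 lower in Y402F, and nuclear long noncoding RNAs 4 higher and 1 lower in KO, and 0 higher and 3 lower in Y402F. Median log2 differences in KO and Y402F were 0.15 and 0.19 for the core spliceosome, -0.15 and -0.20 for the splicing regulators, 0.04 and -0.42 for the SR-related genes and -0.24 and -0.63 for the kinases. They were 0.00 and -0.18 for nonsense-mediated decay, 0.03 and -0.38 for the import receptors, -0.25 and -0.14 for the other hnRNP proteins and 0.89 and -0.71 for the nuclear RNAs, against 0.00 over all genes. The table kind cannot be told apart from genotype in any of these counts.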

How the data were processed

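RNA of 8 hippocampal libraries was analysed from the gene tables the authors deposited. Per the file headers, each mutant table gives an expected count (an estimate of the reads of a gene, with shared reads divided), a length and an FPKM value by Entrez identifier, for genes above 0. Per the file headers, the authors' control tables give FPKM with confidence bounds by Ensembl gene in the layout of Cufflinks, with no counts. The submitters' processing notes name Bowtie 1, HISAT and mm9 for every library, with Cufflinks for the controls; the control positions nevertheless lie on GRCm38, which is used here. No source used here names the program behind the expected counts. Expected counts summed to 5756180 and 5965755 in KO and 5825061 and 6017219 in Y402F, with 81.1 to 81.7% whole within 0.005; the depth of the controls is unknown, and so are counting limits there. Replicates correlated at 0.965 to 0.982 across genes.

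Of 18022 mutant genes, 17625 matched by symbol and 80 by the Entrez table of GENCODE M21, 13 were dropped for a repeated identity and 304 did not match. Unmatched genes held 0.91 to 1.09% of the FPKM in mutants. They held 51.9 and 52.9% in KO controls and 61.8 and 62.0% in Y402F controls. FPKM were scaled by median-of-ratios factors from the 11462 genes that reached 1 FPKM in each library. KO and Y402F were compared with edgeR 4.0.16 (quasi-likelihood, TMM, expected counts rounded to whole numbers, filterByExpr, 2 residual degrees of freedom; SE as the log2 difference over the root of F). The other comparisons fitted log2(scaled FPKM + 1) in limma 3.58.1, trended by intensity, for genes averaging 1 FPKM or above, with all 8 libraries and 4 residual degrees of freedom; these log2 differences understate changes of low genes. All p-values are two-sided and adjusted by Benjamini-Hochberg over all tested genes. DESeq2 1.42.0, other scalings and filters, a replicate block, a sex term and left-out libraries served as alternatives. Values per library are given for called members, for the 3 highest and 3 lowest differences of a comparison and for the most and least abundant members. The members, lists and alternatives were chosen with earlier results of these data known. Scripts ran in R 4.3.3 and in Python 3.11.15 with scipy 1.17.1, pandas 2.3.3, matplotlib 3.10.9 and numpy 2.4.6. Some genes of the lists are not reported here.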

Additional observations from a re-analysis of the deposited data

Results flagged for a closer look

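In 2 members both KO libraries lay on one side of the KO controls and both Y402F libraries on the opposite side of the Y402F controls, 6.06% of the members, against 3.72% of all tested genes. For Hnrnpdl the difference between the effects, KO minus Y402F, was 0.98 (SE 0.17, limma adjusted p = 0.136), with KO above its controls and Y402F below its own. For Srsf9, a close relative of Srsf1, it was -0.49 (SE 0.20, limma adjusted p = 0.350), with 17.1 and 19.0 scaled FPKM in KO, against 25.2 and 20.4 in KO controls, and 19.2 and 21.6 in Y402F, against 18.4 and 17.4 in Y402F controls. Neither difference was called.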

How the results depend on the processing

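A tally of the alternatives covered, in each comparison, the called members of smallest p, the 3 highest and 3 lowest differences, and Hnrnpdl and Srsf9. Weaker calls, and other members called only under an alternative, lie outside it. Within this tally no called member reversed. Of its values 518 kept direction and side of the threshold, 27 lost the call, 8 gained it and 5, none of them called, changed sign. In KO against Y402F these were Hnrnpdl, 0.049 with every library and below 0 without KO replicate 1 or Y402F replicate 2, and Srsf4 and Tra2a, both without Y402F replicate 1; with a library left out Hnrnpdl ranged from -0.086 to 0.210, Srsf4 from -0.039 to 0.253 and Tra2a from -0.510 to 0.059. With the sex term Tra2a was at 0.056 for the difference of the mutant effects. The median of the members, which has no test, changed sign with quantile normalization, to 0.10 in KO and 0.02 in Y402F against their controls, and with a term for the sex pattern to 0.03 in KO against KO controls. In KO controls against Y402F controls the count of called members moved most: it was 5, and 3 with no filter on low values, 1 with no intensity trend, 1 with only the 4 libraries compared, 8 with a term for the sex pattern (4 of them shared with the 5) and 1 to 2 with a library left out. Fewer libraries leave fewer residual degrees of freedom; otherwise the cause was not tested. Tra2b passed there without scaling (limma adjusted p = 0.0499), with the replicate block (0.0497) and without Y402F control replicate 1 (0.0339). With the sex term Hnrnpdl alone was called for the difference of the mutant effects, a count of 1 against 0 (1.21, limma adjusted p = 0.0304). The sex pattern does not vary within either control group, so this term is estimated only from replicate 1 against replicate 2 of the mutants. There it coincides with replicate number, and Y402F replicate 2 also holds choroid plexus transcripts. Results with the term therefore carry a mutant replicate difference over to the controls. In Y402F against its controls Hnrnpdl passed without scaling (-0.44), with the sex term (-0.40) and without Y402F replicate 1 (-0.44). With a library left out, 16 to 20 members were called in KO against KO controls and 12 to 15 in Y402F against Y402F controls; no such fit called a member in KO against Y402F. Same-numbered libraries are not known to be paired: their deviations correlated at 0.20 between KO and Y402F and at -0.03 to 0.05 between other groups. The replicate block gave counts of 0 in KO against Y402F, 19 in KO and 16 in Y402F against their controls, 6 between the controls and 0 for the difference of effects. The unknown depth of the controls limits all but KO against Y402F.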

Other observations

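Within each mutant the members tended to be higher in replicate 1, the library with a female sex pattern, than in replicate 2. Of the 33 members 23 were higher in KO replicate 1, 69.7% against 48.7% of all tested genes. In Y402F replicate 1 it was 22, 66.7% against 49.4%, and 17 were higher in both, 51.5% against 31.2%. Within KO controls 15 were higher in replicate 1, 45.5% against 48.8%, and within Y402F controls 17, 51.5% against 51.6%. Hnrnpa2b1, at 117 and 96.5 scaled FPKM in KO and 146 and 100.2 in Y402F, and Srsf1, at 24.0 and 19.8 in KO and 27.6 and 20.4 in Y402F, are examples chosen after their values were seen. Nothing in the labels pairs the replicates. The choroid plexus markers summed to 41.9 scaled FPKM in Y402F replicate 1 and 758 in Y402F replicate 2. The part of the sex pattern or of choroid plexus transcripts in the members' values was not tested. In 17 members the mean transcript length in the mutant tables varied between libraries, by at most 4.39% of its mean (Srsf7).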
